A study of Mus musculus with 6 samples.

Results

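Hepatic de novo lipogenesis was followed through 10 genes, Srebf1, Mlxipl, Fasn, Acaca, Acly, Scd1, Elovl6, Me1, Thrsp and Pnpla3, among 13493 genes tested and 22180 genes with a probe of their own. Each of the 10 genes had exactly 1 probe (a transcript cluster of the array) whose annotation held its symbol alone, and no probe with several symbols held any of them, so the brightest-probe choice did not arise. All 10 passed the filter on dim probes, which asked for a 6-array mean of at least 2.65 log2 units, the median probe's level. The Vascepa group was 3 livers of male C57BL/6 mice that received Vascepa for 7 days and then a high-fat diet for 6 weeks. The vehicle group, titled as control, was 3 livers of male C57BL/6 mice with vehicle for the same 7 days and the same 6 weeks of diet. Mice were 8 weeks old when acclimatised, and all 6 livers carried the high-fat diet, with no group off the diet analysed here. Vascepa is icosapent ethyl, an ethyl ester form of eicosapentaenoic acid, which is an omega-3 fatty acid of fish oil. The labels name neither its dose nor the vehicle, and whether livers of 1 group were from different mice is not stated. The p-values therefore reflect the spread between these 6 samples and no more, and part of it may be technical.

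De novo lipogenesis turns surplus carbohydrate carbon into fatty acids in the cytosol of the hepatocyte. Citrate leaves the mitochondrion, is cleaved to acetyl-CoA, is carboxylated to malonyl-CoA and is built into palmitate with NADPH as the reductant, after which the chain is elongated and desaturated. Insulin acts on the pathway largely through the membrane-bound transcription factor SREBP-1c, and glucose through ChREBP. Polyunsaturated fatty acids are known to lower SREBP-1c activity in rodent liver, which makes these genes of interest for an omega-3 agent. In the order given, however, the 7 days of Vascepa came before the 6 weeks of diet. An effect present only during dosing may therefore not be seen in these livers.

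No lipogenesis gene changed past the threshold with all arrays weighted equally, and the groups overlapped in all 10. In Vascepa livers 7 of the 10 genes had a lower mean and 3 (Mlxipl, Thrsp and Pnpla3) a higher one, against 60.1% of all genes tested lower. With each array centred on its own median the members' count was again 7, beside 71.1% of all genes. With a further quantile normalization it was 6, beside 55.2%, and Acaca was then the gene on the other side. The median log2 difference (Vascepa minus vehicle) was -0.18 over the 10 genes and -0.063 over all genes. Among brighter genes alone, with a filter at 4.34 log2 units (the 75th percentile of probes), it was -0.21 over 9 members and -0.14 over all genes. By limma at a Benjamini-Hochberg adjusted p under 0.05, 0 of the 10 passed, against 0.0% of all genes. At an unadjusted p under 0.05 the members again numbered 0, against 2.68% of all genes, and 0 had non-overlapping groups, against 8.24%. The largest difference was 0.752 times the vehicle level (Me1), so 0 members reached a fold of 1.5, which 3.39% of all genes did. Array quality weights changed the call. They put a weight of 39.5 on Vascepa replicate 2 and between 0.178 and 2.33 on each other array, and with them 5 of the 10 passed (limma adjusted p = 0.00589 for Elovl6, 0.00652 for Me1, 0.011 for Acly, 0.0363 for Scd1 and 0.0407 for Fasn), all lower, with a median difference of -0.59. The same weights called 4100 of the 13493 genes tested (30.4%). Single arrays also moved this picture. Leaving out 1 array at a time gave between 5 and 8 lower members. The median difference was -0.55 without vehicle replicate 2 and -0.34 without Vascepa replicate 1, but -0.046 without Vascepa replicate 3, -0.075 without Vascepa replicate 2, -0.0078 without vehicle replicate 1 and 0.067 without vehicle replicate 3. Over all genes the median ran from -0.087 to -0.016 in these fits, and the share of lower genes was not computed.

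The arrays themselves were of uneven make-up. Between arrays, r over all probes ran from 0.934 to 0.981, and Vascepa replicate 3 stood farthest from the others with a mean r of 0.948. Of all genes tested, 38.8% had their lowest value on that array. The median of all probes differed between arrays, with 2.63 to 2.81 on the Vascepa arrays, highest on replicate 3, against 2.62 to 2.67 on the vehicle arrays. Small nucleolar RNAs, scored as the mean of 67 genes, lay between 5.82 and 7.54 in Vascepa livers, highest on replicate 3, and between 5.96 and 6.86 in vehicle livers, highest on replicate 2. Hepatocyte markers, 11 of 12 with a probe, were bright on every array. Their means ran from 11.23 to 11.96 in Vascepa livers and from 11.65 to 11.90 in vehicle livers. Of these 11, 9 were lower in Vascepa livers, against 60.1% of all genes. With a further quantile normalization 10 were lower, against 55.2%. Adipocytes make fat with the same enzymes. Of 8 adipocyte markers 7 had a probe and 4 passed the filter, while Adipoq, Lep and Cidea lay under it. Of the 4 tested, Lipe and Retn were lower in Vascepa livers (-0.38 and -0.057) and Plin1 and Fabp4 higher (0.30 and 0.051). Fabp4 read 5.39, 5.34 and 6.88 on the Vascepa arrays, against 5.77, 6.00 and 5.69 on the vehicle arrays. The mean level of the 7 adipocyte markers with a probe was 2.87 to 3.17 in Vascepa livers and 2.92 to 3.17 in vehicle livers. Among the tested markers of other cells, 7 of 8 Kupffer cell, 4 of 6 endothelial, 5 of 5 stellate, 1 of 4 cholangiocyte, 1 of 5 skeletal muscle and 0 of 4 pancreatic acinar genes were lower in Vascepa livers, and 0 passed the adjusted threshold. At an unadjusted p under 0.05 there were 3 Kupffer cell markers (Vsig4, Cd68 and Timd4, differing by -0.53, -0.54 and -0.54) and 1 skeletal muscle marker, against 2.68% of all genes. Their part in the lipogenesis values was not tested. With a further quantile normalization the lower counts were 6 of 8 Kupffer cell, 2 of 6 endothelial, 3 of 5 stellate, 2 of 4 cholangiocyte, 1 of 5 muscle and 0 of 4 acinar genes. As these are bulk liver samples, fewer cells of a type and less RNA per cell cannot be told apart.

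Srebf1 encodes SREBP-1, the transcription factor that drives the fatty acid synthesis genes under insulin. It read 7.07, 6.60 and 5.39 (log2) on Vascepa replicates 1, 2 and 3, against 7.12, 5.96 and 6.61 on vehicle replicates 1, 2 and 3. The lowest value belonged to Vascepa replicate 3 and the highest to vehicle replicate 1, with the other 4 mixed between them. The difference was -0.21 ± 0.46 (SE, limma adjusted p = 0.976), with a 95% interval from -1.27 to 0.85. Without Vascepa replicate 3 the difference was 0.27. Mlxipl encodes ChREBP, the factor through which glucose metabolites act on the same enzymes. It read 7.34, 6.72 and 6.66 on the Vascepa arrays, against 7.07, 6.42 and 6.91 on the vehicle arrays. Its highest value was in a Vascepa liver and its lowest in a vehicle liver, and the ranges overlapped for most of their length. Mlxipl differed by 0.11 ± 0.26 (interval -0.50 to 0.72, limma adjusted p = 0.976).

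**Figure D1:**
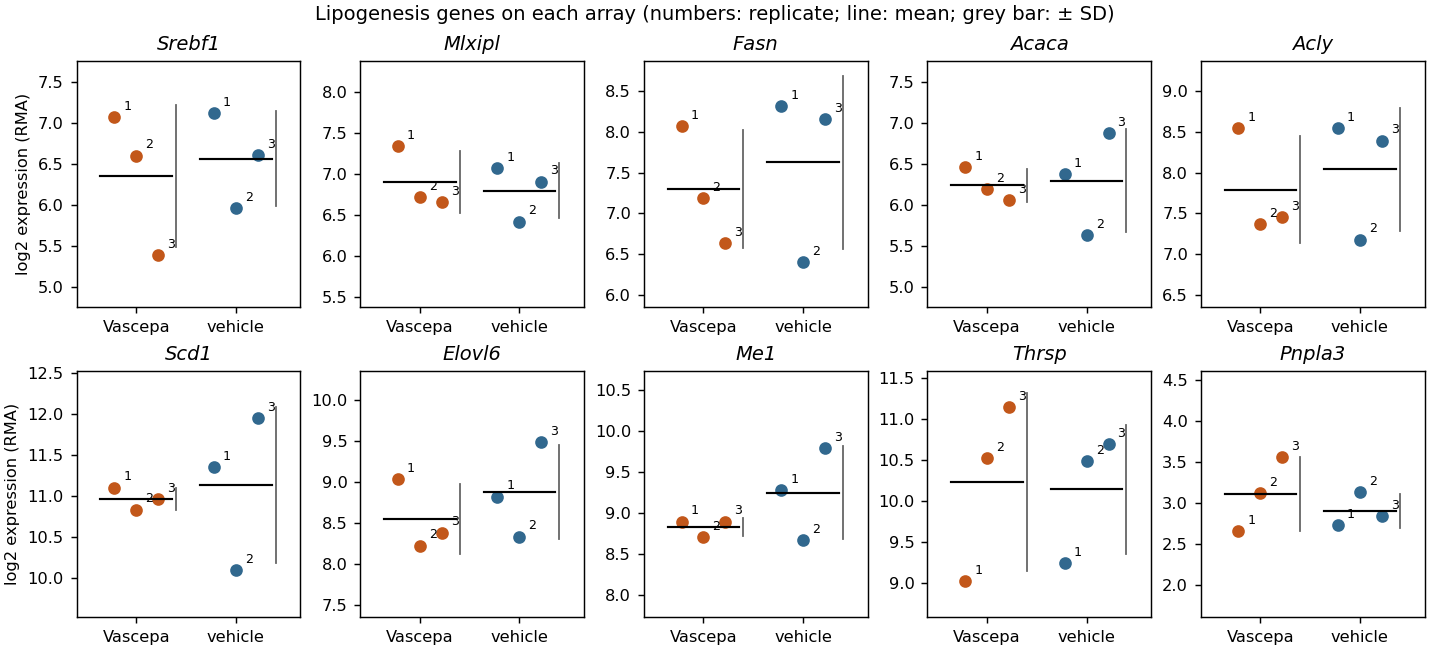
Log2 expression (RMA, vertical axis, every panel 3 log2 units high) of the 10 lipogenesis genes on the 3 Vascepa arrays (left in each panel) and the 3 vehicle arrays (right), with replicate numbers beside the points, the group mean as a line and ± SD as a grey bar. The groups overlap in all 10 panels, and vehicle replicate 2 is the lowest array for 6 genes while Thrsp and Pnpla3 are lowest on Vascepa replicate 1.

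Acly, Acaca and Fasn encode the enzymes that make palmitate. Acly, ATP citrate lyase, releases cytosolic acetyl-CoA, and it read 8.54, 7.37 and 7.46 on the Vascepa arrays, against 8.54, 7.18 and 8.39 on the vehicle arrays. Replicate 1 of each group and vehicle replicate 3 were high, and vehicle replicate 2 was lowest. Acly differed by -0.25 ± 0.44 (interval -1.26 to 0.76, limma adjusted p = 0.976). Acaca, acetyl-CoA carboxylase 1, makes malonyl-CoA. It read 6.46, 6.19 and 6.06 on the Vascepa arrays, against 6.38, 5.63 and 6.88 on the vehicle arrays. The 3 Vascepa values all lay inside the range of the vehicle values, and the difference was -0.059 ± 0.32 (interval -0.79 to 0.67, limma adjusted p = 0.987), turning to 0.042 with a further quantile normalization. Fasn, fatty acid synthase, assembles palmitate. It read 8.07, 7.19 and 6.64 on the Vascepa arrays, against 8.31, 6.41 and 8.15 on the vehicle arrays. Vehicle livers alone spanned a 3.75-fold range in Fasn and Vascepa livers a 2.69-fold range, with vehicle replicate 2 below all others. Fasn differed by -0.33 ± 0.55 (interval -1.60 to 0.95, limma adjusted p = 0.976). That interval runs from 0.33 to 1.93 times the vehicle level, so a change of either sign and of considerable size lies within it.

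Elovl6 and Scd1 encode the enzymes that turn palmitate into longer and monounsaturated fatty acids. Elovl6 elongates palmitate, and it read 9.03, 8.22 and 8.38 on the Vascepa arrays, against 8.82, 8.33 and 9.48 on the vehicle arrays. Vascepa replicate 2 was lowest and vehicle replicate 3 highest, and Elovl6 differed by -0.33 ± 0.34 (interval -1.11 to 0.45, limma adjusted p = 0.976). Its size depended on single vehicle arrays. Leaving out vehicle replicate 2 gave -0.60, and leaving out vehicle replicate 3 gave -0.028. Scd1, stearoyl-CoA desaturase 1, places the double bond of oleate. It read 11.10, 10.83 and 10.96 on the Vascepa arrays, against 11.35, 10.09 and 11.95 on the vehicle arrays. The Vascepa livers lay close together, a 1.21-fold range, inside the 3.62-fold range of the vehicle livers. Scd1 differed by -0.16 ± 0.42 (interval -1.15 to 0.82, limma adjusted p = 0.976), and by 0.25 without vehicle replicate 3.

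Me1, cytosolic malic enzyme, supplies NADPH to fatty acid synthase. It read 8.90, 8.71 and 8.90 on the Vascepa arrays, against 9.28, 8.67 and 9.80 on the vehicle arrays. Vehicle replicates 1 and 3 were above every Vascepa array and vehicle replicate 2 was below them. Me1 had the smallest p of the 10 genes, with a difference of -0.41 ± 0.29 (interval -1.07 to 0.25, limma adjusted p = 0.976), which leaving out single arrays took from -0.70 to -0.14.

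Thrsp and Pnpla3 are usually counted with the lipogenic genes but ran differently over these arrays. Thrsp encodes Spot 14, a small nuclear and cytosolic protein that follows thyroid hormone and carbohydrate and is tied to fatty acid synthesis. It read 9.02, 10.52 and 11.14 on the Vascepa arrays, against 9.24, 10.48 and 10.69 on the vehicle arrays. Replicate 1 was the lowest array of either group, and Thrsp differed by 0.093 ± 0.58 (interval -1.24 to 1.42, limma adjusted p = 0.988). Its Vascepa livers spanned a 4.34-fold range, and the sign turned without Vascepa replicate 3 or vehicle replicate 1 (-0.36 each) and without Vascepa replicate 2 (-0.055). Pnpla3 encodes a lipid droplet protein of the patatin family, a target of SREBP-1c in mouse liver. It read 2.66, 3.12 and 3.56 on the Vascepa arrays, against 2.73, 3.13 and 2.84 on the vehicle arrays. All 6 values were above the filter level of 2.65, the lowest barely so, and RMA compresses differences at this dim end. Pnpla3 differed by 0.22 ± 0.26 (interval -0.38 to 0.81, limma adjusted p = 0.976) and by -0.0063 without Vascepa replicate 3.

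**Figure D2:**
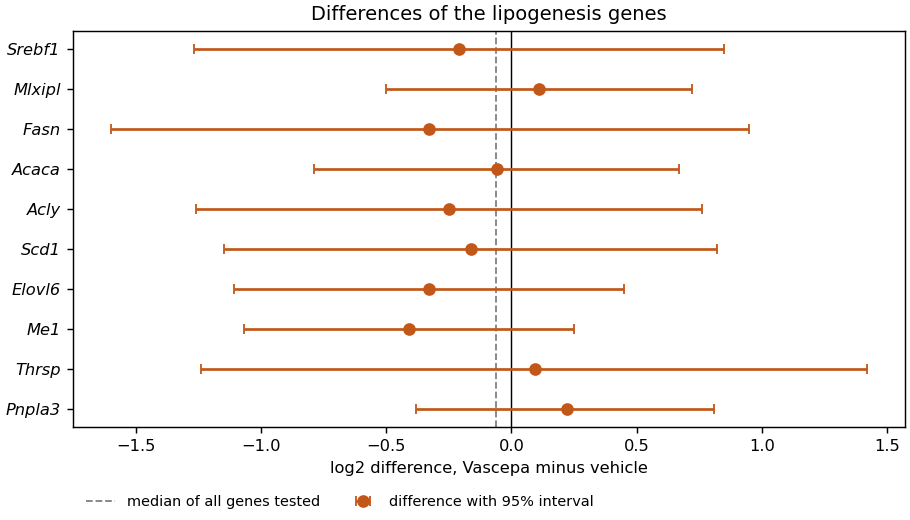
Log2 difference, Vascepa minus vehicle (horizontal axis), of each lipogenesis gene with its 95% interval from limma, 3 arrays against 3, and the median of all genes tested as a dashed line at -0.063. All 10 intervals include 0, and the points run from -0.41 (Me1) to 0.22 (Pnpla3).

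Spread between livers of the same group was wide for these genes. The median within-group SD was 0.59 log2 units over the 10 genes, against 0.29 over all genes tested, and 5 of the 10 lay above the 90th percentile of all genes. Thrsp was at percentile 99.4 with an SD of 0.95 and Fasn at percentile 99.1 with 0.90, while Pnpla3 and Mlxipl lay at percentiles 62.8 and 64.7. In all 10 genes the range of the vehicle arrays exceeded the difference between the group means, and in 9 the range of the Vascepa arrays did, Me1 being the exception. The share of all genes for which this held was not computed, so these counts do not set the 10 genes apart. The groups were not equally spread in every gene. Scd1 had an SD of 0.14 in Vascepa livers and 0.95 in vehicle livers, Me1 0.11 in Vascepa livers and 0.57 in vehicle livers, and Acaca 0.21 in Vascepa livers and 0.63 in vehicle livers. The opposite held for Pnpla3, at 0.45 in Vascepa livers and 0.21 in vehicle livers, and for Srebf1, at 0.87 in Vascepa livers and 0.58 in vehicle livers. In all, 6 of the 10 genes were less spread in Vascepa than in vehicle livers, against 28.5% of all genes tested. Those genes were singled out after their values were seen, an SD over 3 arrays is itself imprecise, and the difference in spread was not tested.

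**Figure D3:**
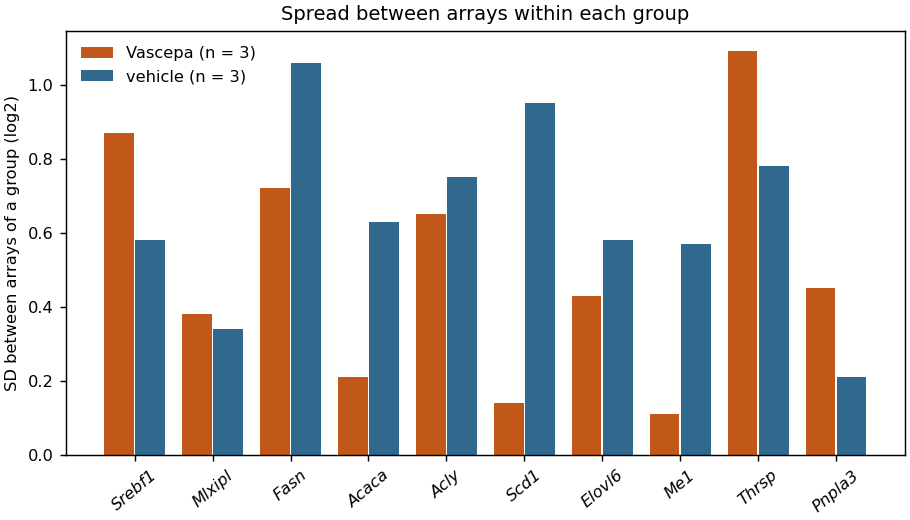
SD between the 3 arrays of a group (log2 units, vertical axis from 0) for each lipogenesis gene in Vascepa livers (left bar) and vehicle livers (right bar). Scd1, Me1 and Acaca have short Vascepa bars (0.14, 0.11 and 0.21) beside vehicle bars of 0.95, 0.57 and 0.63, and Thrsp has the longest bar of all, 1.09 in Vascepa livers.

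Across the 6 arrays 8 of the genes moved together. Pnpla3 ran against them, and Thrsp ran against only some of them. The 28 pairs among Srebf1, Mlxipl, Fasn, Acaca, Acly, Scd1, Elovl6 and Me1 all had a positive Pearson's r, from 0.33 to 0.97 with a median of 0.80. All 28 were also positive when each array's value was taken relative to its group mean, from 0.29 to 0.98. The 16 pairs of Thrsp or Pnpla3 with these genes all had a negative r, from -0.94 to -0.023, and 15 of the 16 were negative relative to group means. Thrsp ranged from -0.84 with Srebf1 to -0.13 with Scd1 and -0.023 with Me1. Its pairs with Scd1 and Me1 were the ones that changed sign in a leave-one-out. Thrsp and Pnpla3 went with each other (r = 0.83). Setting these genes apart was done after their values were seen, and Pnpla3 lay near the filter level of 2.65. Over all 45 pairs the median r was 0.65 and the median absolute r 0.77, against 0.02 and 0.47 over all 91023778 pairs of genes tested. A high r with Fasn was not particular to these genes. Among tested hepatocyte markers it ran from -0.49 (Apoa1) to 0.88 (Apob and Cps1). Among genes of insulin and energy control it ran from -0.19 (Prkab1) to 0.92 (Irs2). The points of each r share the same 6 arrays, so the pairs are not independent of one another.

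None of the 45 correlations passed after adjustment, but over 6 arrays no single pair could have passed alone, however strong. The absence of a pass therefore cannot decide whether any given pair covaries. Each r and each Spearman's rho was tested by an exact two-sided permutation over the 720 orders of the 6 arrays. Its smallest possible p is 0.00139 for Pearson's r and 0.00278 for Spearman's rho. At an unadjusted p under 0.05 there were 17 pairs by Pearson's r and 13 by Spearman's rho, and the lowest Benjamini-Hochberg adjusted values were 0.0938 and 0.115. The share of all gene pairs at that level was not computed, and their median absolute r was already 0.47. These 2 counts therefore cannot be read as particular to the lipogenesis genes. Scd1 and Me1 gave r = 0.91 (exact permutation p = 0.00417, adjusted 0.0938) and rho = 1.00 (exact permutation p = 0.00278, adjusted 0.115), and r = 0.97 without the 2 arrays farthest from the Scd1 median. Srebf1 and Pnpla3 gave r = -0.94 (exact permutation p = 0.00417, adjusted 0.0938) and rho = -0.94 (p = 0.0167, adjusted 0.115), and r = -0.80 without the 2 arrays farthest from the Srebf1 median. Pnpla3 was dim, from 2.66 to 3.56, near the filter level of 2.65. It was highest on Vascepa replicate 3, vehicle replicate 2 and Vascepa replicate 2, which also had the highest medians of all probes. How far this shaped the correlations of Pnpla3 was not tested. Acaca and Scd1 gave r = 0.97 (exact permutation p = 0.0125, adjusted 0.104) and rho = 0.89 (p = 0.0333, adjusted 0.115), and r = 0.66 without the 2 farthest arrays. Fasn and Acly gave r = 0.96 (exact permutation p = 0.0264, adjusted 0.104) and rho = 0.89 (p = 0.0333, adjusted 0.115), and r = 0.98 without the 2 farthest arrays. Of the 45 pairs 42 kept their sign without those 2 arrays and 43 kept it in each leave-one-out. The exceptions to the first were the pairs of Srebf1 with Acaca, Scd1 and Me1, at -0.22, -0.18 and -0.17. Thus Srebf1 followed Fasn (r = 0.86) and Mlxipl (r = 0.79) more closely than Scd1 (r = 0.44) or Me1 (r = 0.33), a ranking that was not tested.

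**Figure D4:**
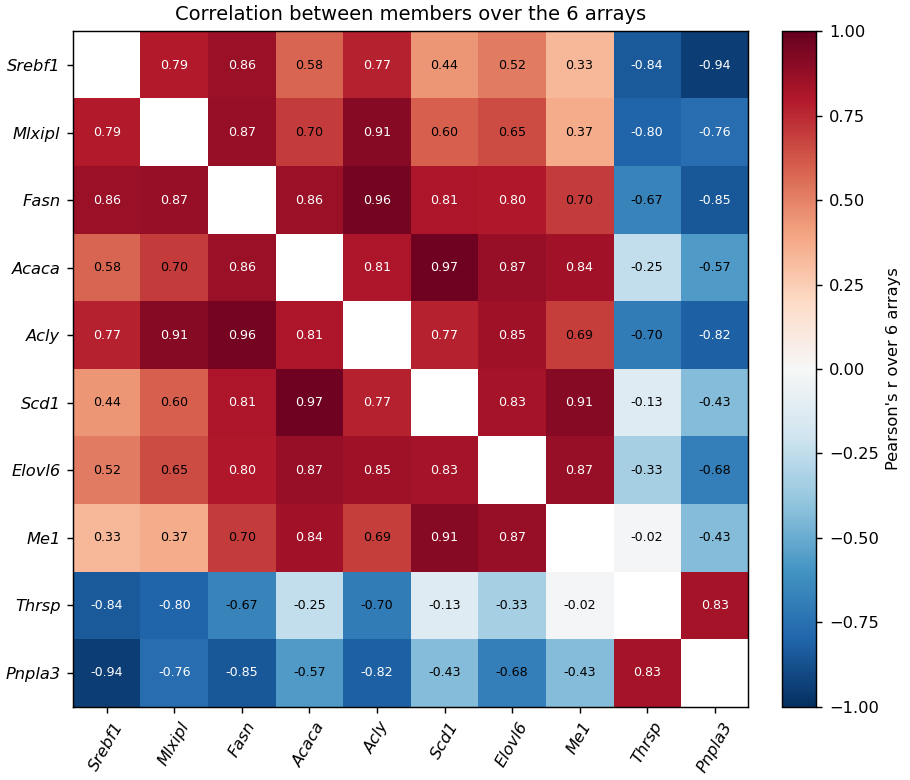
Pearson's r over the 6 arrays for each pair of lipogenesis genes, coloured from -1 (blue) to 1 (red). The 8 genes from Srebf1 to Me1 form a positive block from 0.33 to 0.97. The Thrsp and Pnpla3 rows are negative against it, from -0.94 to -0.023.

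The extreme values of these genes were mostly on vehicle arrays. Vehicle replicate 2 was the lowest array for 6 of the 10 genes (Mlxipl, Fasn, Acaca, Acly, Scd1 and Me1), a place it took in 9.95% of all genes tested. Vehicle replicate 3 was the highest array for 4 (Acaca, Scd1, Elovl6 and Me1), which it was for 11.7% of all genes. Vascepa replicate 3, the lowest array for 38.8% of all genes, was lowest for Srebf1 alone among the 10 and highest for Thrsp and Pnpla3. Relative to the vehicle mean, the median of the 10 genes lay at 0.16, -0.20 and -0.29 on Vascepa replicates 1, 2 and 3, against 0.15, -0.59 and 0.54 on vehicle replicates 1, 2 and 3. The lowest arrays, vehicle replicate 2 and Vascepa replicates 3 and 2, were the 3 with the most small nucleolar RNA, at 6.86, 7.54 and 6.99. With that score as a covariate, an alternative chosen after seeing the data, the median difference was 0.078 over the 10 genes and -0.03 over all genes. Of the 10 genes 3 were lower, a count for which the share of all genes was not computed. Fasn differed by 0.17, Srebf1 by 0.21 and Thrsp by -0.43. Whether small nucleolar RNA bears on the levels of these genes was not tested.

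Sequence just before the transcription start was compared for the genes that moved together and for Thrsp and Pnpla3. RefSeq promoter entries (GRCm38.p6) matched 9 of the 10 genes with 13 starts, Scd1 having no entry. The 250 bases before each start were searched on both strands for the E-box CACGTG, the sterol regulatory element TCACNCCAC bound by SREBP, the tandem E-box of the kind bound by ChREBP (CANNTG repeated after a gap of 5 bases), the CCAAT box CCAAT and the GC box GGGCGG. Windows are given 5′ to 3′ on the gene's strand with every match in capitals. Fasn and Acly are shown as the closely paired synthesis enzymes, and Mlxipl for its first start, which holds the E-box. Pnpla3 and Thrsp are shown as the genes outside the group that moved together.
Fasn (chr11:120824548-120824797, minus strand): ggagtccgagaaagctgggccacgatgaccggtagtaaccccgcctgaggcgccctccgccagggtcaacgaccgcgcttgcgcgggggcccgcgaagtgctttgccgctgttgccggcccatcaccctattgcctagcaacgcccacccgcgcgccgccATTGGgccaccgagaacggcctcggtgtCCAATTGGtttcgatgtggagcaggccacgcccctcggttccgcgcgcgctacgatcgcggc
Acly (chr11:100528001-100528250, minus strand): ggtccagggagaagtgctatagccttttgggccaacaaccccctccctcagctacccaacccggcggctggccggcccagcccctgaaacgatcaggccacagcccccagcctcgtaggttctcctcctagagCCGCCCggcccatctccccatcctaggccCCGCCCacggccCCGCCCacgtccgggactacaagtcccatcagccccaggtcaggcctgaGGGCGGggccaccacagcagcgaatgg
Mlxipl (chr5:135089640-135089889, plus strand): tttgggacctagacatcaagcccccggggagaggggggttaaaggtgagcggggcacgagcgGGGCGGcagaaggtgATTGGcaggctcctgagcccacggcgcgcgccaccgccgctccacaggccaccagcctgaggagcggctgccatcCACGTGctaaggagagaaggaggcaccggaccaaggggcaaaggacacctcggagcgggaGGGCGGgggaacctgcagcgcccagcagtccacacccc
Pnpla3 (chr15:84167566-84167815, plus strand): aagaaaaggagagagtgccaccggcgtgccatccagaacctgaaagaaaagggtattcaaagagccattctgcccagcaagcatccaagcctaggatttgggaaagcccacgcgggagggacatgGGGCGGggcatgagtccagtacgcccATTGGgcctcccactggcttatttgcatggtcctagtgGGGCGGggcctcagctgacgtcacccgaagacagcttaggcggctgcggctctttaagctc
Thrsp (chr7:97417551-97417800, minus strand): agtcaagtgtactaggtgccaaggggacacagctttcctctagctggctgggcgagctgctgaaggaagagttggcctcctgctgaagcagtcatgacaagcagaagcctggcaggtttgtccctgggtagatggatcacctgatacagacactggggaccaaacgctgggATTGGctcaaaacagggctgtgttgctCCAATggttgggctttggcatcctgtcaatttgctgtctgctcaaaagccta

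The CCAAT box, read by NF-Y, a usual partner of SREBP, was the match most often present. It lay in 7 of the 13 windows and 6 of the 9 genes, against 33.8% of all 32851 windows. The GC box, read by Sp1-type factors, lay in 6 of 13 windows and 5 of 9 genes, against 32.7% of all windows. Fasn held 3 CCAAT matches, 2 of them overlapping on opposite strands, and no GC box, whereas Acly held 4 GC boxes and no CCAAT box. Thrsp held 2 CCAAT boxes and Pnpla3 held 1 with 2 GC boxes. The CCAAT box thus occurred in genes that moved together and in Thrsp and Pnpla3. The E-box was found in 1 window (Mlxipl, against 6.02% of all windows), the sterol regulatory element in 1 (the second Mlxipl start, against 1.05%), and the tandem E-box in 0 (against 0.639%). A missing match says only that these letters are not in this window.

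Relatives of the 10 genes, from a list of 16, are shown for comparison with the members. Of these 15 had a probe of their own and 12 passed the filter. None passed the adjusted threshold, with 10 lower and 2 higher in Vascepa livers and a median of -0.23, beside 60.1% of all genes lower. Srebf2, which encodes the SREBP that drives cholesterol synthesis, had the smallest p. It read 5.40, 4.83 and 4.13 on the Vascepa arrays, against 5.54, 5.09 and 5.25 on the vehicle arrays, and differed by -0.51 ± 0.32 (limma adjusted p = 0.976). Srebf2 was thus lowest on Vascepa replicate 3, as Srebf1 was. Me2, a mitochondrial malic enzyme, differed by -0.29 ± 0.20 (limma adjusted p = 0.976). As a description over the same 6 arrays, the r of the tested relatives with Fasn ran from -0.90 (Mlx, the partner of ChREBP) to 0.97 (Elovl5, an elongase of polyunsaturated fatty acids). Mlxip, at 0.92, and Elovl2, at 0.88, were also high, Srebf2 was at 0.73, and Me2 and Me3 were near 0 (0.032 and 0.17).

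Genes that control SREBP and its promoters were also without a call. Of 15 listed 14 were tested, 11 lower and 3 higher with a median of -0.26, and 0 passed. With a further quantile normalization 9 were lower. The shares of all genes lower were 60.1% and, with that normalization, 55.2%. Insig1, which holds SREBP in the endoplasmic reticulum and is itself an SREBP target, read 8.40, 8.34 and 8.05 on the Vascepa arrays, against 9.42, 8.51 and 8.71 on the vehicle arrays. Its groups did not overlap, and it differed by -0.62 ± 0.26 (limma adjusted p = 0.976). Mbtps2, the site-2 protease that frees SREBP, read 4.37, 4.27 and 3.20 on the Vascepa arrays, against 4.49, 4.49 and 4.48 on the vehicle arrays. These groups did not overlap either, with Vascepa replicate 3 far below the rest, and the difference was -0.54 ± 0.31 (limma adjusted p = 0.976).

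Genes that bring carbon and NADPH to the pathway and genes of fatty acid use were lower in the mean in every tested case. That was 10 of 10 in each list, against 60.1% of all genes tested and 9 of 11 hepatocyte markers, and 0 passed. The medians were -0.25 for supply and -0.20 for use. Relative to the vehicle mean, the supply list's median was 0.11, -0.20 and -0.66 on Vascepa replicates 1, 2 and 3. That of the list of use was 0.17, -0.17 and -0.81, so the lower means were not shared by all Vascepa arrays. With a further quantile normalization 8 of 10 supply genes and 10 of 10 genes of use were lower, against 55.2% of all genes. Pgd, of the pentose phosphate pathway, read 5.94, 4.99 and 4.60 on the Vascepa arrays, against 6.34, 5.42 and 5.81 on the vehicle arrays, and differed by -0.68 ± 0.38 (limma adjusted p = 0.976). Slc25a1, the carrier that exports citrate from the mitochondrion, differed by -0.32 ± 0.20 with a mean of 8.62 in Vascepa livers and 8.95 in vehicle livers. Dgat1, of triglyceride synthesis, read 4.62, 4.76 and 3.55 on the Vascepa arrays, against 5.08, 4.78 and 4.89 on the vehicle arrays, and differed by -0.61 ± 0.32. Its groups did not overlap, by a narrow margin. Fads2, the delta-6 desaturase of polyunsaturated fatty acids, read 10.93, 9.97 and 9.45 on the Vascepa arrays, against 10.81, 10.20 and 11.07 on the vehicle arrays, and differed by -0.57 ± 0.39 (limma adjusted p = 0.976 for each).

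ChREBP targets were lower in 10 of 11 tested genes (median -0.33) and genes of insulin and energy control in 14 of 14 (median -0.32). Relative to the vehicle mean, the insulin list's median was 0.32, -0.18 and -0.99 on Vascepa replicates 1, 2 and 3. That of the ChREBP targets was -0.16, -0.32 and -0.41. The lower means of the insulin list were thus not shared by all Vascepa arrays. Of all genes tested 60.1% were lower, and again 0 of the listed genes were past the threshold. Pklr, Khk and Slc2a2 are in both the ChREBP and the supply list. With a further quantile normalization the ChREBP and insulin counts were 9 of 11 and 13 of 14, against 55.2% of all genes. G6pc, glucose-6-phosphatase, differed by -0.57 ± 0.27 and Arrdc4, an arrestin relative of Txnip, by -0.33 ± 0.18. Arrdc4 read 5.27, 5.44 and 5.49 on the Vascepa arrays, against 5.62, 5.67 and 5.90 on the vehicle arrays, with no overlap. Trib1, a pseudokinase that lowers hepatic lipogenesis in mice, differed by -0.49 ± 0.24 and Prkaa1, a catalytic subunit of AMP-activated kinase, by -0.44 ± 0.34 (limma adjusted p = 0.976 for each of these 4). The cholesterol synthesis list, set beside the lipogenesis genes because SREBP serves both, was lower in 16 of 16 tested genes with a median of -0.32 and 0 past the threshold, and in 15 of 16 with a further quantile normalization. Its genes with the smallest p, Nsdhl and Fdps, differed by -0.57 ± 0.24 and -0.43 ± 0.23 (limma adjusted p = 0.976 for each).

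These lists and the 10 lipogenesis genes reached their lowest level on different arrays. Vascepa replicate 3 was the lowest array for 13 of 14 insulin and energy control genes, 9 of 10 genes of fatty acid use and 8 of 10 supply genes, against 1 of the 10 lipogenesis genes and 38.8% of all genes. The other lists were nearer that share, with 9 of 14 genes of SREBP processing, 7 of 12 relatives, 6 of 11 ChREBP targets and 7 of 16 cholesterol synthesis genes, the last with its lowest median (-0.57) on Vascepa replicate 2. The medians of the first 3 lists on Vascepa replicate 3 were -0.99, -0.81 and -0.66 from the vehicle mean, beside -0.29 for the lipogenesis genes. On vehicle replicate 2 the order was the other way, at -0.36, -0.35 and -0.21 for the 3 lists and -0.59 for the lipogenesis genes. On Vascepa replicate 1 the medians of the 3 lists were above the vehicle mean, at 0.32, 0.17 and 0.11. Those of SREBP processing genes and relatives were 0.12 and 0.11, and those of ChREBP targets and cholesterol synthesis -0.16 and -0.083. The counts of lower genes in these lists were not repeated without single arrays. Hepatocyte markers had their lowest value on Vascepa replicate 3 in 10 of 11 cases, with a median of -0.51 there, and small nucleolar RNAs their highest. The part of either in the list medians was not tested.

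**Figure D5:**
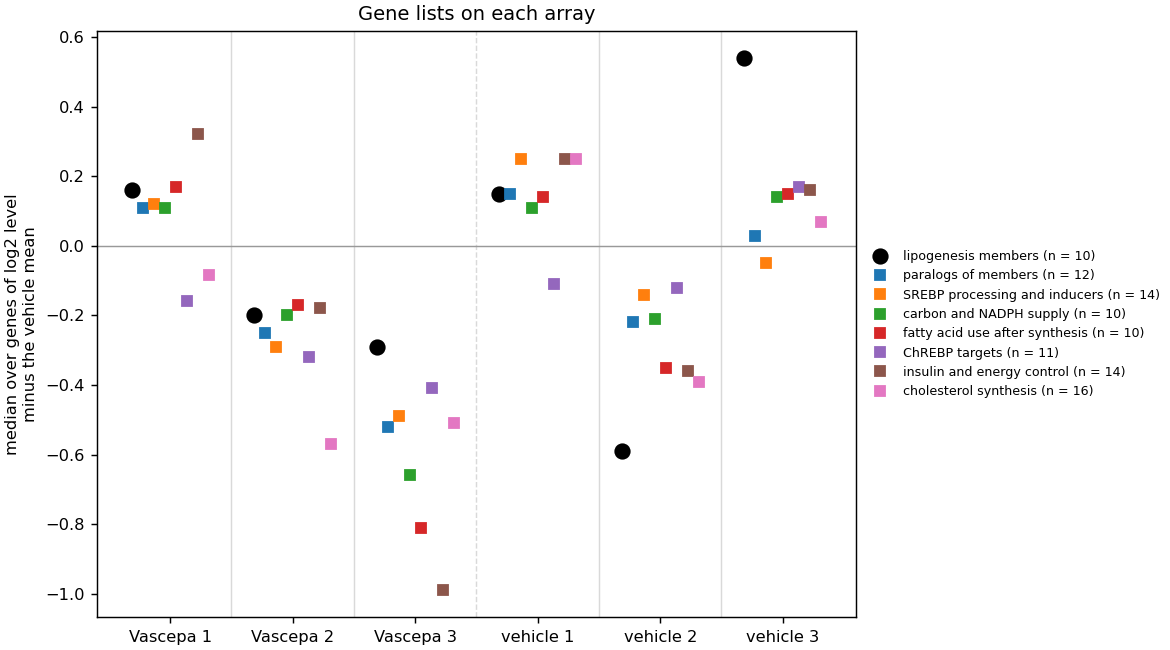
Median over the tested genes of each list of the log2 level minus the vehicle mean (vertical axis) on the 3 Vascepa arrays (left) and the 3 vehicle arrays (right), one symbol per list. The lipogenesis genes (black circles) reach their lowest point on vehicle replicate 2 (-0.59) and their highest on vehicle replicate 3 (0.54), while the other lists except cholesterol synthesis are lowest on Vascepa replicate 3, down to -0.99.

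Outside the lists, the 10 tested genes whose course over the 6 arrays was most like the mean of the 10 lipogenesis genes had r between 0.961 and 0.999. They were Fubp1, Cct3, Pign, Gm2427, 2310067E19Rik, Il27ra, Igfbp5, Iqgap1, Wdr81 and Trim7. Fubp1, which encodes a single-strand DNA-binding regulator, headed them with 5.32, 5.16 and 5.13 on the Vascepa arrays, against 5.35, 4.96 and 5.50 on the vehicle arrays. Its swing between vehicle replicates 2 and 3 was smaller than that of the enzymes, and it differed by -0.068 ± 0.20 (limma adjusted p = 0.977). Iqgap1, a scaffold protein, had the largest mean difference of the 10 genes, -0.29 ± 0.33 (limma adjusted p = 0.976). With only 6 arrays and so many genes, values of r this high are to be found for many patterns, and they are given as a description.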

How the data were processed

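Liver RNA of 6 samples was hybridised to Affymetrix arrays. The authors deposited log2 values, 1 per transcript cluster and array, made with Affymetrix Expression Console and RMA per the submitters' processing notes (no version or genome build is given in the sources used). RMA in general subtracts background, quantile-normalizes, summarises probes and compresses dim differences, but the deposited columns' medians ranged from 2.62 to 2.81, and which arrays were normalized together is not stated. Of 41345 probes, 23521 had 1 gene symbol, 1814 several and 16010 no entry. Symbols were updated by gene ID (23328 probes) through RefSeq GRCm38.p6. Batches were not analysed here, and precision is limited by having 6 arrays.

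The main comparison used limma 3.58.1 under R 4.3.3 (lmFit and eBayes, Benjamini-Hochberg adjustment, threshold 0.05) over 13493 genes, without covariates. With 3 against 3, an exact permutation test of a single value cannot go below p = 0.10. In 20 simulated data sets over 13493 genes, the fit recovered 28.1% of genes changed by 1 log2 unit and 78.8% of those changed by 2. False calls were 4%. The changed genes were drawn from all genes tested, with independent noise for each gene. The members were more spread than most (median SD 0.59 against 0.29), so these rates do not describe the members. Same-numbered arrays deviated from their group means with r = 0.61, 0.11 and -0.13, so the numbers were not treated as pairs.

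Members and lists were chosen with earlier results of these data known. All members were named, in each other list the 2 genes with the smallest p (marker lists are given as counts), and the 10 nearest patterns. Markers under the filter, the adipocyte and Kupffer cell markers and the non-member genes given for their r with Fasn stand outside that rule. They were chosen after their values were seen. The alternatives were 2 filters, 2 normalizations, a trended prior, array weights, the replicate block, averaged probes, leaving out arrays and a small RNA covariate.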

Additional observations from a re-analysis of the deposited data

How the results depend on the processing

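Alternatives are compared with 0 genes and 0 lipogenesis genes past the adjusted threshold, 7 lower members, a median difference of -0.18 and a median r of 0.65. Array quality weights gave Vascepa replicate 2 a weight of 39.5 and the other arrays 2.33 or less, and returned 4100 genes and 5 lipogenesis genes past the threshold and a median of -0.59. The 5 were Elovl6 (-0.97, limma adjusted p = 0.00589), Me1 (-0.84, 0.00652), Acly (-0.87, 0.011), Scd1 (-0.75, 0.0363) and Fasn (-0.75, 0.0407), and Mlxipl turned to -0.14. The weights' estimate did not fully converge. The small RNA covariate gave 2 genes, neither a member. It gave 3 lower members, with the share of all genes not computed, and a median of 0.078, against -0.03 over all genes. It turned Srebf1 to 0.21, Fasn to 0.17, Acaca to 0.12, Acly to 0.14, Scd1 to 0.034 and Thrsp to -0.43. A further quantile normalization turned Acaca to 0.042. The causes were not tested.

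Leaving out each array in turn kept 0 genes past the threshold (141 to 2018 at an unadjusted p under 0.05, 362 with all arrays). The median difference ranged from -0.55 to 0.067 and the median r from 0.49 to 0.73. Over these fits Srebf1 ranged from -0.56 to 0.27, Mlxipl from -0.11 to 0.24, Fasn from -0.93 to 0.019, Acaca from -0.39 to 0.23, Acly from -0.68 to 0.00052, Scd1 from -0.68 to 0.25, Elovl6 from -0.60 to -0.028, Me1 from -0.70 to -0.14, Thrsp from -0.36 to 0.70 and Pnpla3 from -0.0063 to 0.44. Of 149 member values under the 15 alternatives 22 had another sign, in 8 members, Elovl6 and Me1 being the others. The replicate block gave 0 genes past the threshold and 438 at an unadjusted p under 0.05, with the same differences, and 3 of the 6 arrays (Vascepa replicates 1 and 2, vehicle replicate 1) correlated best with the array of their own number. No filter, the 75th percentile filter (which dropped Pnpla3), centring, the trended prior and averaged probes changed no call and no sign. An exact permutation test of single genes could not reach the threshold with 3 against 3.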
